A study of Mus musculus with 6 samples.

Results

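The genes described here drive, restrain or mark the division of cells. They are 40 listed genes in 5 roles: cyclins, cyclin-dependent kinases, inhibitors of these kinases, genes of DNA replication and nucleotide supply, and genes of mitosis. A member counted as measured if a probe set of the array carried its symbol alone, and where several did, the brightest one on average was taken. This gave 39 of the 40 members among 18193 genes tested. The missing member is Ccnb1, which encodes cyclin B1, and it was not analysed here.

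Total RNA of whole back skin from 6 female mice of 1 litter, taken at postnatal day 2.5, was measured on 1 Affymetrix 3-prime expression array per mouse. The 3 caNrf2 mice are labelled K5cre-caNrf2 (tg/tg). They carried Nrf2, a transcription factor, in an always-active version (caNrf2), switched on by Cre recombinase. Cre was driven by the promoter of keratin 5, a gene of basal keratinocytes. The 3 control mice are labelled K5cre-wt (tg/wt), and the strain background of both groups was mixed, from FVB/N and C57BL/6. Cre thus acts in cells with keratin 5 activity, in the epidermis and its appendages, and their descendants keep the change. The RNA came from all cells of the skin, and a member's level sums over every dividing cell type in it. In such bulk samples fewer cells of a type and less RNA per cell cannot be told apart.

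A cell that is to divide passes from G1 into S phase, in which DNA is copied, and through G2 into mitosis. D-type cyclins with Cdk4 or Cdk6, and E-type cyclins with Cdk2, free E2F transcription factors from the retinoblastoma proteins, and E2F then switches on genes of replication. Later the cyclins A and B with Cdk1 start mitosis, and genes of that phase are held down in resting cells by the DREAM complex, which binds an element called CHR in their promoters. In neonatal skin, cells divide in the basal layer, in the matrix of growing hair follicles and in the dermis. Nrf2 binds the antioxidant response element together with a small Maf protein and switches on genes of detoxification and glutathione synthesis.

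The cell cycle genes did not differ detectably between caNrf2 and control skin. None of the 39 members passed the threshold in either direction (limma, Benjamini-Hochberg adjusted p under 0.05 over all genes), where 0.374% of all genes did, 0.346% higher and 0.0275% lower. At an unadjusted p under 0.05 the count of members was also 0, beside 8.09% of all genes. No member had groups without overlap, whereas the groups did not overlap for 13.1% of all genes, 6.23% higher and 6.88% lower in caNrf2 skin. The smallest adjusted p of a member was 0.708. The 39 log2 differences, caNrf2 minus control, lay between -0.17 and 0.18 with a median of 0.01, beside a median of -0.01 for all genes, and 21 were positive and 18 negative.

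The differences were small as well as not called. All 39 members differed by less than 0.2 on the log2 scale, as did 91.9% of all genes, and 32 members by less than 0.1, as did 66.6% of all genes. For 30 members the difference was smaller than its own standard error (SE), which was 0.07 to 0.11. The 95% interval of the difference, taken gene by gene, lay within 1.3-fold either way for 37 of the 39 members and for 86.3% of all genes. It lay within 1.2-fold for 29 members and for 51.1% of all genes. Dim genes lower the shares of all genes, and 38 of the 39 members had a mean log2 level above 8. Of all genes above that level, 93.2% had an interval within 1.3-fold and 64.8% within 1.2-fold. Their difference was under 0.2 for 96% and under 0.1 for 75.9%. Over all members the 95% intervals ran from 0.761-fold to 1.32-fold, so changes of 1.5-fold in whole skin lay outside each of them. Changes inside these intervals could not be told from 0. The values are quantile-normalised array intensities, which compress folds of dim probes and cannot show a shift shared by most genes.

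**Figure D1:**
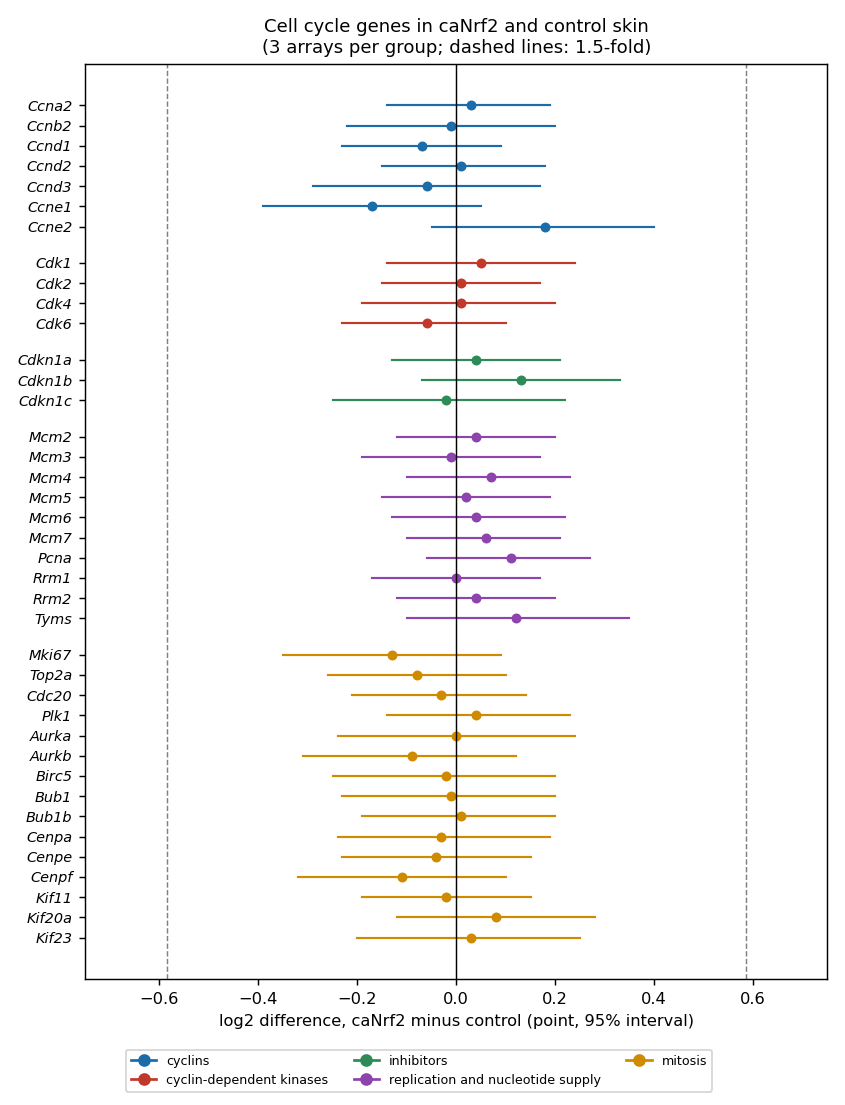
Log2 difference between caNrf2 and control skin (x axis, point) with its 95% interval from limma (line) for each of 39 cell cycle genes (y axis), coloured by role, with 3 arrays per group. All points lie between -0.17 and 0.18, and no interval reaches the dashed lines at 1.5-fold.

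Known Nrf2 targets differed on the same arrays. Nqo1, a quinone reductase and a standard Nrf2 target, measured 6.20, 5.90 and 5.67 on control arrays 1 to 3 and 9.46, 9.70 and 9.42 on caNrf2 arrays 1 to 3 (log2 intensity). It was 12.2-fold higher in caNrf2 skin (adjusted p = 2.70e-07). Nfe2l2, which encodes Nrf2, differed by 0.41 ± 0.07 (SE) and missed the threshold (adjusted p = 0.0539). The members were well measured: 38 of 39 had a mean log2 level above 8, whereas 3 Y-linked genes, silent in these females, lay between 2.94 and 3.95. The exception was Tyms. How bright one probe set is against another says nothing of transcript amounts, so levels are compared only within a gene. The probe sets used for Ccne1, Cdk4, Mcm5, Rrm2, Cdc20 and Aurkb (type x_at) and for Mcm2, Mcm3 and Mcm7 (type s_at) can also bind similar transcripts. Array medians lay between 80.9 and 82.1 intensity units, and 3 arrays per group limit the precision.

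**Figure D2:**
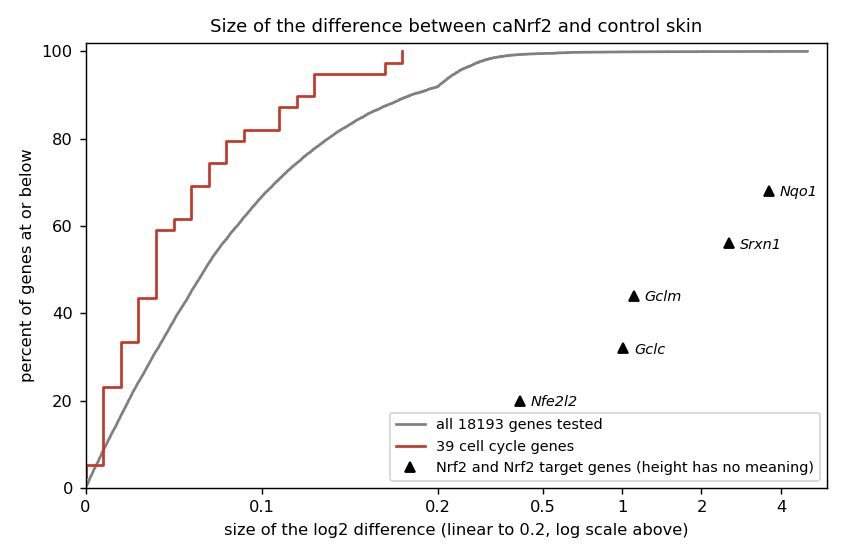
Cumulative percent of genes (y axis) whose log2 difference between caNrf2 and control skin is of a given size or smaller (x axis, linear to 0.2 and logarithmic above), for 39 cell cycle genes (red) and all 18193 genes (grey), with Nfe2l2 and 4 Nrf2 targets as triangles. The red curve is complete below 0.2, whereas the Nrf2 targets lie between 1.01 and 3.61.

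Promoter stretches are shown for members that hold the letters of CHR, E2F or Nrf2 sites, to set them beside the expression values. RefSeq promoter windows of GRCm38.p6, with 250 bases before and 50 after the annotated start, were found for 31 of the 39 measured members. The 6 letters of the CHR element, TTTGAA on either strand, stood in 13 of the 31, or 41.9%, and in 20.2% of the 27025 genes with a window. The CCAAT box, which binds NF-Y and often accompanies CHR, stood in 25, or 80.6%, against 41.1% of all genes. Both stood in the same 13 members, 41.9%, against 8.97% of all genes. The role with most CHR letters was mitosis, with 10 of 13 genes. The stretches just upstream of 4 annotated starts follow, 5′ to 3′ on the gene's own strand, with CHR and CCAAT letters of either strand in capitals. They belong to Cdk1 (chr10:69352913-69353002, minus strand), Top2a (chr11:99024190-99024299, minus strand), Cdc20 (chr4:118437344-118437403, minus strand) and Kif11 (chr19:37376322-37376381, plus strand).
Cdk1: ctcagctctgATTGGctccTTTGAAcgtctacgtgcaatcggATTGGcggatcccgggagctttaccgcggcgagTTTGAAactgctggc
Top2a: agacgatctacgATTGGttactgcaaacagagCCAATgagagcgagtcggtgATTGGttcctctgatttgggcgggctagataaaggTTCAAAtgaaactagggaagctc
Cdc20: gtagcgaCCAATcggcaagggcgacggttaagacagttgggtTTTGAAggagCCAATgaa
Kif11: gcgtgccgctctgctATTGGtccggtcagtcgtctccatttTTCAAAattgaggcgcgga

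E2F letters, searched as TTGGCGC or TTCCCGC on either strand, stood in 8 of the 31 members, or 25.8%, against 7.79% of all genes. Of these 8, 5 are genes of replication, 2 are kinases and 1, Mki67, is of mitosis. Mcm5 (chr8:75109339-75109378, plus strand) and Mcm6 (chr1:128359736-128359820, minus strand) hold 2 matches each, here in capitals.
Mcm5: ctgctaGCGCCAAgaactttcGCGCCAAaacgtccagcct
Mcm6: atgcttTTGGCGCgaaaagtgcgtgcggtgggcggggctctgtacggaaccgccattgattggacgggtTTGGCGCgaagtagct

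The core letters of the antioxidant response element, TGACNNNGC on either strand, also stood in 8 of the 31 members, or 25.8%, against 14.0% of all genes. These were Ccnd3, Cdk4, Cdkn1a, Cdkn1b, Pcna, Rrm2, Bub1 and Cenpe. Stretches with the match in capitals are given for 2 of them, Rrm2 (chr12:24708179-24708208, plus strand) and Cdk4 (chr10:127063390-127063419, plus strand). Beside them stands Gclm (chr3:122245412-122245441, plus strand), a subunit of the rate-limiting enzyme of glutathione synthesis and a known Nrf2 target.
Rrm2: gggcggcgaGCGGGGTCAgcggcgtccaat
Cdk4: ctgcttcccagcGCAAAGTCAaggggtcac
Gclm: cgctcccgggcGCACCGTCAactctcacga

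Gclm rose 2.16-fold in caNrf2 skin (adjusted p = 0.000405), whereas Rrm2 differed by 0.04 and Cdk4 by 0.01 on the log2 scale. The 8 members with the core letters had differences from -0.06 to 0.13, with a median of 0.02. The 23 members without them ran from -0.17 to 0.12, with a median of 0.00. The 13 members with CHR letters lay between -0.13 and 0.05, with a median of -0.01, and the 8 with E2F letters between -0.13 and 0.06, with a median of 0.01. A match is a description of letters in a window, and binding was not measured.

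Cyclins of G1 were measured for both families. Ccnd1, which encodes cyclin D1, measured 11.03, 11.04 and 11.15 on control arrays 1 to 3 and 11.05, 10.96 and 10.98 on caNrf2 arrays 1 to 3 (log2 intensity). Its difference of -0.07 ± 0.07 (SE) was as large as its error, and the groups overlapped. Ccnd2, which encodes cyclin D2, measured 12.60, 12.60 and 12.69 in control and 12.72, 12.64 and 12.56 in caNrf2 skin, a difference of 0.01 ± 0.07. Its 95% interval ran from 0.900-fold to 1.13-fold, and its 6 other probe sets differed by -0.01 to 0.04. Ccnd3, which encodes cyclin D3, was alike on 5 arrays, at 10.43 to 10.53, and lower on caNrf2 array 1, at 10.14. The mean difference was -0.06 ± 0.10.

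The E-type cyclins, which act at the entry into S phase, gave the lowest and the highest difference of all members. Ccne1 measured 8.68, 8.5 and 8.65 in control and 8.27, 8.41 and 8.65 in caNrf2 skin, a difference of -0.17 ± 0.10 (adjusted p = 0.717). The 2 lowest values were those of caNrf2 arrays 1 and 2, and caNrf2 array 3 lay within the controls. Without caNrf2 array 1 it was -0.09 and without array 3 -0.27, and a second probe set differed by -0.02 ± 0.11. Ccne2 measured 8.44, 8.48 and 8.49 in control and 8.63, 8.45 and 8.86 in caNrf2 skin, a difference of 0.18 ± 0.10 (adjusted p = 0.708). Here the controls were tight, at an SD of 0.03, and the caNrf2 mice spread widely, at an SD of 0.21, with array 2 among the controls. Without caNrf2 array 3 the difference was 0.07, and without array 2 it was 0.28. The caNrf2 mice thus differed among themselves by more than the groups did for both E-type cyclins.

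Ccna2, which encodes cyclin A2 of S and G2 phase, differed by 0.03 ± 0.07, and its second probe set by 0.00 ± 0.08. Ccnb2, which encodes the mitotic cyclin B2, differed by -0.01 ± 0.09. For both, the lowest of the 6 values was that of control array 3, at 10.54 for Ccna2 and 9.86 for Ccnb2.

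Of the 4 kinases, Cdk1 is the engine of mitosis. It measured 10.37, 10.37 and 10.29 in control and 10.26, 10.37 and 10.55 in caNrf2 skin, a difference of 0.05 ± 0.09. The caNrf2 mice held both the lowest and the highest value. Cdk4, the partner of D-type cyclins, measured 11.24, 11.19 and 11.16 in control and 11.02, 11.28 and 11.30 in caNrf2 skin, a difference of 0.01 ± 0.09. Cdk6, the other partner of D-type cyclins, measured 9.45, 9.55 and 9.62 in control and 9.43, 9.50 and 9.52 in caNrf2 skin, a difference of -0.06 ± 0.07. Cdk2, the partner of cyclins E and A, differed by 0.01 ± 0.07. On caNrf2 array 1 all 4 kinases lay below every control, as did 35.7% of all genes on that array. On caNrf2 array 3 Cdk1, Cdk2 and Cdk4 lay above every control, as did 30.9% of all genes on that array. Cdk2 exceeded the highest control only narrowly there, at an intensity of 1031 against 1021.

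Among inhibitors of the kinases, Cdkn1a, which encodes p21, is the classical target of p53. It measured 11.30, 11.15 and 11.20 in control and 11.32, 11.30 and 11.15 in caNrf2 skin, a difference of 0.04 ± 0.08 (adjusted p = 0.939). Its second probe set, of similar brightness, gave a larger value. It measured 11.04, 10.88 and 10.93 in control and 11.23, 11.17 and 11.04 in caNrf2 skin, a difference of 0.20 ± 0.08 that reached an unadjusted p of 0.0366 and an adjusted p of 0.531 in the fit of all probe sets. On both probe sets caNrf2 array 3 was the lowest of its group. On the first it lay just below the lowest control, at an intensity of 2274 against 2276, and on the second it was level with the highest control. Cdkn1b, which encodes p27, measured 9.56, 9.82 and 9.68 in control and 9.89, 9.68 and 9.89 in caNrf2 skin, a difference of 0.13 ± 0.09. Here caNrf2 arrays 1 and 3 were the highest and array 2 lay among the controls. Cdkn1c, which encodes p57, differed by -0.02 ± 0.11.

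The genes of replication held the least scatter among mice, with a median SD within groups of 0.08, against 0.13 for mitosis genes and 0.10 for all genes. The 6 subunits of the MCM helicase, which opens DNA at replication origins, differed by -0.01 for Mcm3, 0.02 for Mcm5, 0.04 for Mcm2 and Mcm6, 0.06 for Mcm7 and 0.07 for Mcm4, each with an SE of 0.07 or 0.08. As an example, Mcm2 measured 10.24, 10.16 and 10.19 in control and 10.17, 10.22 and 10.31 in caNrf2 skin. Pcna, the clamp that holds polymerases on DNA, measured 12.47, 12.53 and 12.58 in control and 12.56, 12.61 and 12.72 in caNrf2 skin. Its difference of 0.11 ± 0.07 (adjusted p = 0.773) came with overlap of control array 3 and caNrf2 array 1 only.

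Nucleotides for replication are made by ribonucleotide reductase and thymidylate synthase. The subunits of the former differed by 0.00 ± 0.08 for Rrm1 and 0.04 ± 0.07 for Rrm2. Tyms, which encodes the latter, was dim, with 6.40, 6.23 and 6.37 in control and 6.57, 6.23 and 6.57 in caNrf2 skin, a difference of 0.12 ± 0.10. Its 3 other single-gene probe sets were dimmer still, and 2 of these differed in opposite directions, by 0.19 and -0.19. In all, 8 of the 10 genes of replication had a positive difference and 2 a negative one, with a median of 0.04, and no gene had an interval that left out 0. The split was 6 and 4 after a further quantile normalisation and 10 and 0 with array weights.

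Mki67, which encodes the proliferation marker Ki-67, measured 11.29, 11.19 and 11.24 in control and 11.29, 10.90 and 11.14 in caNrf2 skin. The difference of -0.13 ± 0.10 (adjusted p = 0.798; 95% interval 0.785-fold to 1.07-fold) came with the lowest value on caNrf2 array 2, while caNrf2 array 1 equalled the highest control. Without caNrf2 array 2 it was -0.02, and without caNrf2 array 1 it was -0.22. Top2a, the topoisomerase that untangles chromosomes, measured 11.06, 10.97 and 11.01 in control and 11.01, 10.78 and 11.00 in caNrf2 skin, a difference of -0.08 ± 0.08. It too was low on caNrf2 array 2 alone, and without that array the difference was -0.01. A second, dimmer Top2a probe set differed by 0.18 ± 0.10, the other way.

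The members of kinetochores and of the spindle checkpoint named next differed by -0.11 to 0.01, and none was called. Cenpf, a large kinetochore protein, measured 9.41, 9.37 and 9.17 in control and 9.26, 9.06 and 9.30 in caNrf2 skin, a difference of -0.11 ± 0.09. Cenpe, the kinesin of the kinetochore, measured 8.25, 8.22 and 8.18 in control and 8.26, 8.0 and 8.27 in caNrf2 skin, a difference of -0.04 ± 0.09. Both were lowest on caNrf2 array 2. Cenpa, the histone variant of centromeres, differed by -0.03 ± 0.10, the checkpoint kinase Bub1 by -0.01 ± 0.10 and its relative Bub1b by 0.01 ± 0.09.

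Cdc20, which activates the anaphase-promoting complex, measured 11.36, 11.30 and 11.15 in control and 11.20, 11.20 and 11.31 in caNrf2 skin, a difference of -0.03 ± 0.08. The mitotic kinases differed by 0.04 ± 0.08 for Plk1, 0.00 ± 0.11 for Aurka and -0.09 ± 0.10 for Aurkb, and Birc5, which encodes the Aurkb partner survivin, by -0.02 ± 0.10. Of the motor proteins, Kif11, which pushes spindle poles apart, differed by -0.02 ± 0.08, and Kif20a and Kif23, which act in cytokinesis, by 0.08 ± 0.09 and 0.03 ± 0.10. In all, 5 of the 15 mitosis genes had a positive and 10 a negative difference, with a median of -0.02. Array weights turned this to 10 and 5, with a median of 0.02, and a further quantile normalisation gave 2 and 13, with a median of -0.05.

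Further probe sets were present for 30 members, 57 in all, and none passed the threshold in the fit of all probe sets, where 0.240% did. Their differences ran from -0.26 to 0.20 with a median of 0.01. For 22 of the 57 the sign was opposite to that of the probe set used. Among these were probe sets of Kif11 (0.09 and 0.10), Cenpe (0.19 ± 0.14) and Ccnd1 (0.07 ± 0.09). At an unadjusted p under 0.05 there were 2 of the 57, against 8.86% of all probe sets. These were the Cdkn1a probe set above and a dim one of Aurka, at a mean log2 level of 4.02 (-0.26 ± 0.10). Of the 57, those brighter than the median probe set, 40 in number, ran from -0.11 to 0.20.

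Among the members the median SD within groups was 0.106, beside a median size of the group difference of 0.038. Over all genes these values were 0.101 and 0.068, and over all genes with a mean log2 level above 8 they were 0.088 and 0.056. Many members moved together from mouse to mouse, though the roles differed in this. Among the control arrays, array 1 held the highest value for 30 of the 39 members, where it did so for 34.2% of all genes. For the mitosis genes this was 14 of 15, and control array 3 was the lowest for 10 of 15, against 34.2% of all genes. Kif23 shows the pattern, with 9.34, 9.20 and 9.04 on control arrays 1 to 3, as does Aurka, with 9.15, 8.98 and 8.80. Averaged over the 15 mitosis genes, control arrays 1, 2 and 3 stood at 0.10, -0.01 and -0.10 relative to the control mean (log2). The genes of replication were instead lowest on control array 2, for 8 of 10, against 31.8% of all genes. Control array 1 was the highest for 3 of 7 cyclins, and the kinases averaged within 0.002 of the control mean on every control array.

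The caNrf2 arrays showed the same kind of spread. Array 3 was the highest of its group for 30 of the 39 members, against 28.2% of all genes, and exceeded every control for 21, against 30.9% of all genes. For the genes of replication these counts were 9 and 8 of 10. Array 2 was the lowest of its group for 10 of 15 mitosis genes, against 30.7% of all genes, and lay below every control for 8 of them, against 28.6%. Relative to the control mean, the mitosis genes averaged -0.03, -0.12 and 0.06 on caNrf2 arrays 1 to 3, and the genes of replication 0.02, 0.00 and 0.13. Over all genes the arrays averaged within 0.02 of the control mean. This pattern was noticed in these values and has no test.

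**Figure D3:**
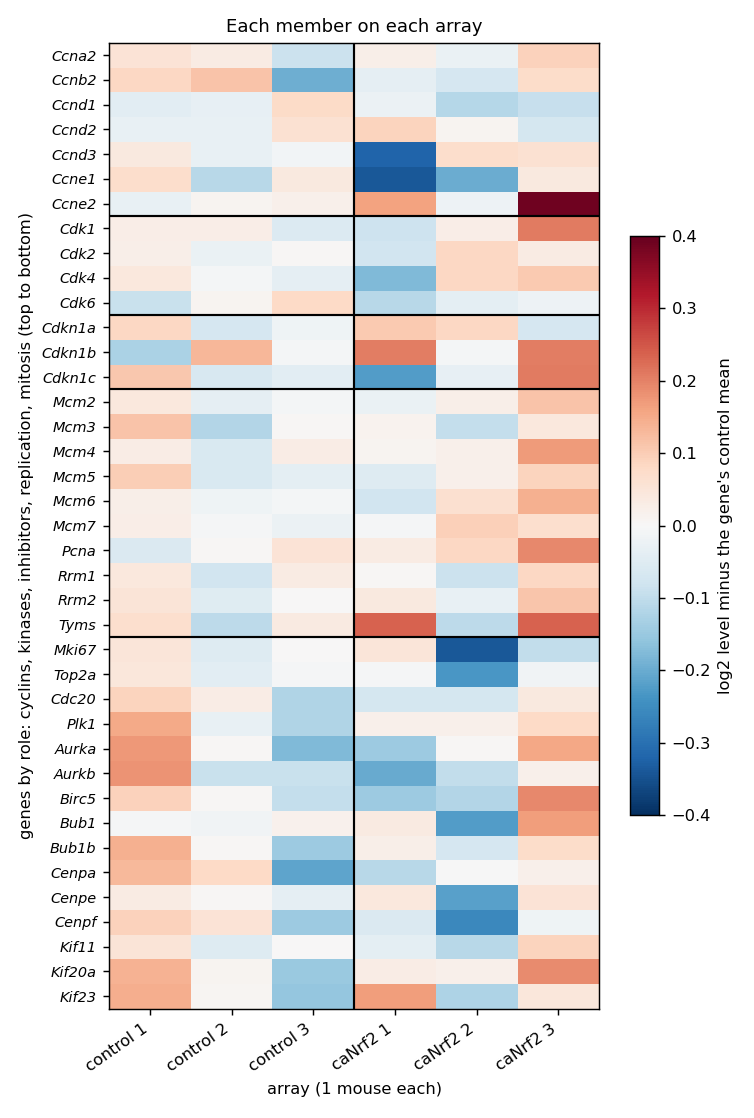
Log2 level of each of 39 cell cycle genes (rows, by role) on each of 6 arrays (columns, 1 mouse each), minus the gene's control mean, from blue (lower) to red (higher). The mitosis genes at the bottom are mostly red on control array 1 and blue on control array 3 and caNrf2 array 2, and most genes are red on caNrf2 array 3.

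**Figure D4:**
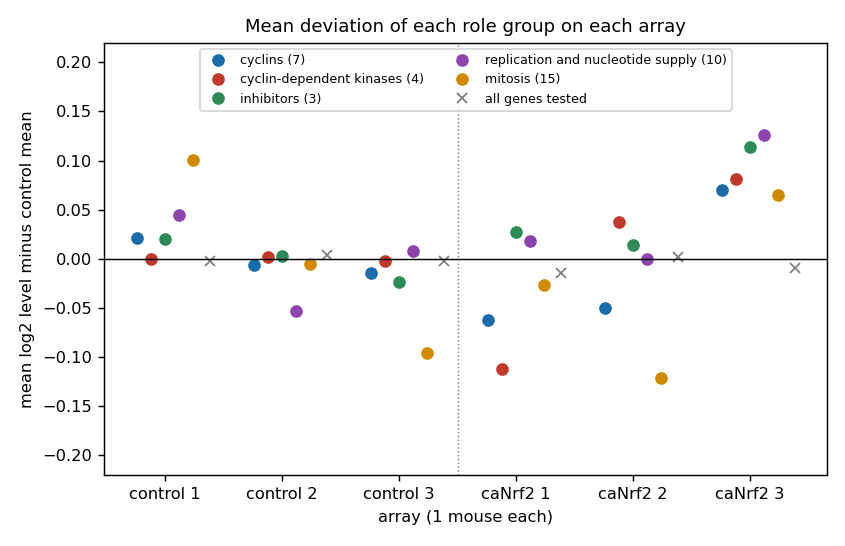
Mean log2 level of each role group minus its control mean (y axis) on each array (x axis), with the number of genes in brackets and crosses for all genes tested. The mitosis genes span 0.10 to -0.10 among control arrays and 0.06 to -0.12 among caNrf2 arrays, and the crosses stay within 0.02 of 0.

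The sign of a group's median changed when single arrays were left out, while no member was called in any of these fits. Without caNrf2 array 3 the median of the 39 members was -0.04, with 25 negative differences. Without control array 1 it was 0.04, with 28 positive ones. For the mitosis genes the median was -0.08 without caNrf2 array 3, -0.07 without control array 3, 0.01 without control array 1 and 0.02 without caNrf2 array 2. The genes of replication had medians of 0.00 to 0.07 whichever array was left out. A further quantile normalisation gave 12 positive and 27 negative members, and array weights gave 29 and 10, against 21 and 18, so no direction is given for the list.

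Markers of cell types were examined beside these values. None of the measured markers listed for 14 cell types passed the threshold, where 0.374% of all genes did. Basal keratinocyte markers (10 of 10 measured) had a median difference of 0.05, and relative to the control mean they averaged 0.00, 0.12 and 0.02 on caNrf2 arrays 1 to 3. Their summed intensity was 38720 to 39630 in control and 39040 to 41360 in caNrf2 skin. Markers of hair matrix and follicle germ (10 of 10) had a median of -0.08 and averaged -0.06, 0.02 and -0.17 on caNrf2 arrays 1 to 3. Their sums were 8673 to 9077 in control and 8125 to 9034 in caNrf2 skin.

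Genes of the hair shaft and of the inner root sheath around it, taken as a single list (11 of 12 measured), moved most from mouse to mouse. They averaged 0.30, 0.03 and -0.46 on caNrf2 arrays 1 to 3, with a summed intensity of 55290 to 57780 in control and 44810 to 65810 in caNrf2 skin. The array on which most cell cycle genes were high, caNrf2 array 3, was the one with the lowest average of this hair list. Dermal fibroblast markers (10 of 10) averaged -0.11, 0.00 and 0.04, with sums of 74910 to 78310 and 75690 to 78540. Other lists also stood apart on caNrf2 array 3, where erythroid markers averaged -0.29 (3 of 7 measured), melanocyte markers -0.24 (6 of 7), mast cell markers 0.21 (6 of 6), T cell markers -0.15 (6 of 7), adipocyte markers -0.15 (5 of 7), endothelial markers -0.14 (8 of 8) and skeletal muscle markers 0.15 (9 of 9). On that array suprabasal keratinocyte markers averaged 0.08 (10 of 10), macrophage markers 0.07 (7 of 8) and Schwann cell markers -0.01 (4 of 6). The median differences between the groups in these 10 lists ran from -0.10 for T cell markers to 0.04 for suprabasal markers. Among basal keratinocyte, hair matrix, hair shaft and sheath, and fibroblast lists, no marker was near the level of silent genes, the dimmest being Wnt10b at 7.14. Near or within that level, 2.94 to 3.95, were Hba-a1 and Hbb-bh1 of the erythroid list, with control means of 4.16 and 4.04. So was Fcer1a of the mast cell list, at 3.54, 3.51 and 4.22 on caNrf2 arrays 1 to 3. The erythroid and mast cell averages thus rest in part on genes near that level. The part of cell composition in the values of the cell cycle genes was not tested.

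Other genes of the cell cycle, 139 listed and 136 measured, also held none that passed the threshold, with a median difference of 0.01. At an unadjusted p under 0.05 there were 8 of 136, against 8.09% of all genes, and groups did not overlap for 13 of 136, against 13.1%. The regulators of the E2F, retinoblastoma and DREAM families had a median of 0.06 (19 of 19 measured), and 3 of these were among the 8. These were E2f6, a repressor (0.26 ± 0.08, adjusted p = 0.365), E2f5, a partner of the DREAM complex (-0.30 ± 0.11, adjusted p = 0.523), and Mybl2, an activator of mitosis genes (0.23 ± 0.09, adjusted p = 0.543). Foxm1, another activator of mitosis genes, measured 8.44, 8.32 and 8.14 in control and 8.24, 8.32 and 8.33 in caNrf2 skin, with equal means (adjusted p = 0.998).

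Of the 4 INK4 inhibitors, which block Cdk4 and Cdk6, Cdkn2b was the only one among the 8. It measured 7.49, 7.45 and 7.41 in control and 7.73, 7.67 and 7.66 in caNrf2 skin, a difference of 0.23 ± 0.07 without overlap of the groups (adjusted p = 0.358). Among p53 targets (12 of 14 genes measured, median 0.08, 10 of 12 positive) it was Gadd45a, a stress gene that slows the cycle, with 7.84, 8.01 and 7.97 in control and 8.15, 8.32 and 8.31 in caNrf2 skin. This difference of 0.31 ± 0.08 separated the groups and missed the threshold (adjusted p = 0.275). Genes of origin licensing and firing had a median of 0.04 (18 of 18), those of polymerases and forks 0.01 (20 of 21), and those of spindle, cytokinesis and mitotic entry or exit -0.02 (46 of 46), and none of these lists held one of the 8.

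The kinetochore and checkpoint list (17 of 17, median 0.04) held the other 3. Zwint, which anchors checkpoint proteins, differed by 0.24 ± 0.08 (adjusted p = 0.443) and Cenpm, a centromere protein, by -0.19 ± 0.08 (adjusted p = 0.609). Cenpp, another centromere protein, had the largest difference of the 136. It measured 7.96, 8.07 and 7.82 in control and 8.30, 8.5 and 8.68 in caNrf2 skin, a difference of 0.54 ± 0.11 (adjusted p = 0.0940). By RefSeq positions on GRCm38.p6, Cenpp overlaps 6 other measured genes. Of these, Ippk differed by 0.56 and Aspn by 0.59, both called, Ogn by 0.55, Omd by 0.38, Tes3-ps by 0.19 and Ecm2 by -0.04. How far signal from these overlapping transcripts enter the Cenpp probe set was not tested.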

How the data were processed

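Values of 6 arrays (3 control, 3 caNrf2 mice) were used. Per the submitters' processing notes the authors made them with RMA, which corrects background, normalises by quantiles and summarises probes; the sources used here do not give its version or software. The deposited table holds linear intensity values for 45101 probe sets. Per the labels' protocols, cRNA came from 2 µg of total RNA. Columns not used numbered 0.

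Intensities were converted to log2, 64 Affymetrix controls were left out, and of the other 45037 probe sets 34945 carried 1 gene symbol in the platform annotation. Groups were compared over 18193 genes with limma 3.58.1 in R 4.3.3 (lmFit, eBayes, no covariate), and p-values were adjusted by Benjamini and Hochberg's method (called at 0.05). Each replicate was its own animal. The same numbers in both groups did not pair the samples. The fit was tested on simulated data. Alternatives were 3 changes of scaling or filter, probe set averaging, 2 variance priors, array weights, a replicate block and each array left out.

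The members and lists were chosen with earlier results of these data known. Values on every array were given for the 8 members with the smallest p, for 8 members set by name, of which 7 were measured, and for the brightest and dimmest of each role; other members named with array values were chosen after their values were seen.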

Additional observations from a re-analysis of the deposited data

How the results depend on the processing

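No member was called under any of the 14 alternatives, and the smallest adjusted p of a member ran from 0.26 with array weights (Ccne2) to 0.939 without control array 1. The replicate block gave 61 called genes against 68 and a member median of 0.008, as without it. Same-numbered arrays deviated at correlations of -0.195, -0.032 and 0.036. All genes called numbered 41 to 89 when single arrays were left out, fewest without control array 1, and 94 with array weights. Of 17 members followed, 7 changed sign under some alternative, all with small values: Ccnd2 (-0.011) and Cdk4 (-0.022) after quantile normalisation, Top2a (0.027) and Cenpe (0.074) with all probe sets averaged, and Ccnd2 (-0.026), Cdkn1a (-0.001) and Cdc20 (0.002) with array weights. With single arrays left out, the difference ran from -0.028 to 0.055 for Ccnd2, from -0.042 to 0.098 for Cdk4, from -0.095 to 0.012 for Cdc20, from -0.082 to 0.049 for Cenpe and from -0.027 to 0.115 for Cdk1, and, with no change of sign, from -0.221 to -0.022 for Mki67, from -0.121 to -0.01 for Top2a, from -0.272 to -0.086 for Ccne1 and from 0.067 to 0.276 for Ccne2. At an unadjusted p under 0.05 there were 2 members without caNrf2 array 2 (Ccne2, Tyms), 1 each without caNrf2 array 1 (Mki67) and array 3 (Ccne1), and 1 with array weights (Ccne2). In the main fit 0 of the 39 members and 8.09% of all genes had such a p. The cause was not tested.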
